A study of Oryza sativa with 40 samples.

Results

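The universal stress protein (USP) genes and the late embryogenesis abundant (LEA) and dehydrin genes of rice were described in leaves moved to a hotter or a cooler room. A gene was a member when its product name in the deposited table held "universal stress protein", "late embryogenesis abundant" or "dehydrin" in any case. Of 23 matches, the dehydrin genes LOC_Os02g44870 and LOC_Os11g26780 were left out by the rule, which left 21 members of the 19308 genes in the table. The USP family held 13 members, every one with the product name "universal stress protein domain containing protein", and the LEA family held 8, of which 2 were named dehydrin.

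The leaves came from rice (Oryza sativa) cultivar IR64, grown in hydroponic tanks under natural light at 30 °C by day and 25 °C by night (warm). Tanks were either kept warm, moved to a room at 40 °C by day and 35 °C by night (hot), or moved to a room at 25 °C by day and 20 °C by night (cold). The middle part of leaves that were already fully expanded was harvested by day, and total RNA depleted of ribosomal RNA was sequenced in 40 libraries. With 4 libraries each, the 10 groups were warm leaves at 0, 2, 6 and 24 h after the move and, at each of the last 3 hours, hot leaves and cold leaves. All plants had the same cultivar and the same warm history. Each temperature was a glasshouse room of its own, so room and temperature cannot be told apart. Sequencing lane also followed temperature in part. Lane 1 carried warm leaves alone and lane 4 cold leaves alone. Warm and hot leaves met in lane 2, hot and cold leaves in lane 3. Since warm and cold leaves never shared a lane, a lane term could compare them only by way of the hot libraries. At 24 h, hot and cold leaves shared no lane either. No label ties a library to its tank, so the p-values measure the spread between these libraries.

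Universal stress proteins are small proteins, first described in bacteria, that carry a nucleotide-binding fold and accumulate in plants under drought, low oxygen and other stresses. LEA proteins are mostly hydrophilic and poorly folded in solution, they build up in maturing seeds and in drying or cold leaves, and they are thought to shield proteins and membranes when water is lost. Dehydrins are a class of LEA proteins with lysine-rich repeats, and many LEA genes are targets of the drought hormone abscisic acid.

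Reads assigned to genes ran from 1830817 to 9628451 per library, with a median of 5853252. Values are in CPM, read counts scaled to the size of the library, taken from the deposited log2 values. They are comparable between libraries but not between genes of different length. The floor of 3 reads used here equals 0.293 to 2.06 CPM across libraries and covers counting error only. The median count per library was at least 10 reads in 9 of 13 USP genes and 5 of 8 LEA genes. Replicate 1 of warm 0 h stood apart from the other libraries of its group, with a mean correlation of 0.86 with them across genes, against 0.922 to 0.929 for the others. Replicate 1 of hot 24 h, at 0.894, lay close to the others of its group, at 0.905 to 0.932. It had stood apart in an earlier analysis of these data, and for that reason these 2 libraries were left out together as an alternative. Genes of the light-harvesting and Rubisco proteins, which mark leaf mesophyll, were abundant in every group, with summed levels of 35600 to 280000 CPM over 21 genes. In bulk tissue, fewer cells of a type and less RNA per cell cannot be told apart.

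A few members took most of the reads of each family. Among USP genes, LOC_Os05g28740 took 29% of the family's 56648 reads, LOC_Os12g36640 took 24.9% and LOC_Os01g07590 took 21.8%. In the LEA family, the dehydrin gene LOC_Os03g45280 took 58% of 137262 reads, LOC_Os01g21250 took 31.2% and LOC_Os03g62620 took 6.55%. The median spread within groups was wider in both families than over all genes, and their levels were lower. The median of the mean log2 values was 2.01 for USP genes and 2.73 for LEA genes, against 3.49 over all genes. The part of low counts in the spread was not tested. The median standard deviation (SD) within groups was 0.80 on the log2 scale for USP genes and 0.59 for LEA genes, against 0.43 over all genes. Below that value lay 3 of the genes just named, LOC_Os03g45280, LOC_Os03g62620 and LOC_Os01g07590, at 0.35, 0.36 and 0.38, and the USP genes LOC_Os05g06500 and LOC_Os07g36600, at 0.31 and 0.25.

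**Figure D1:**
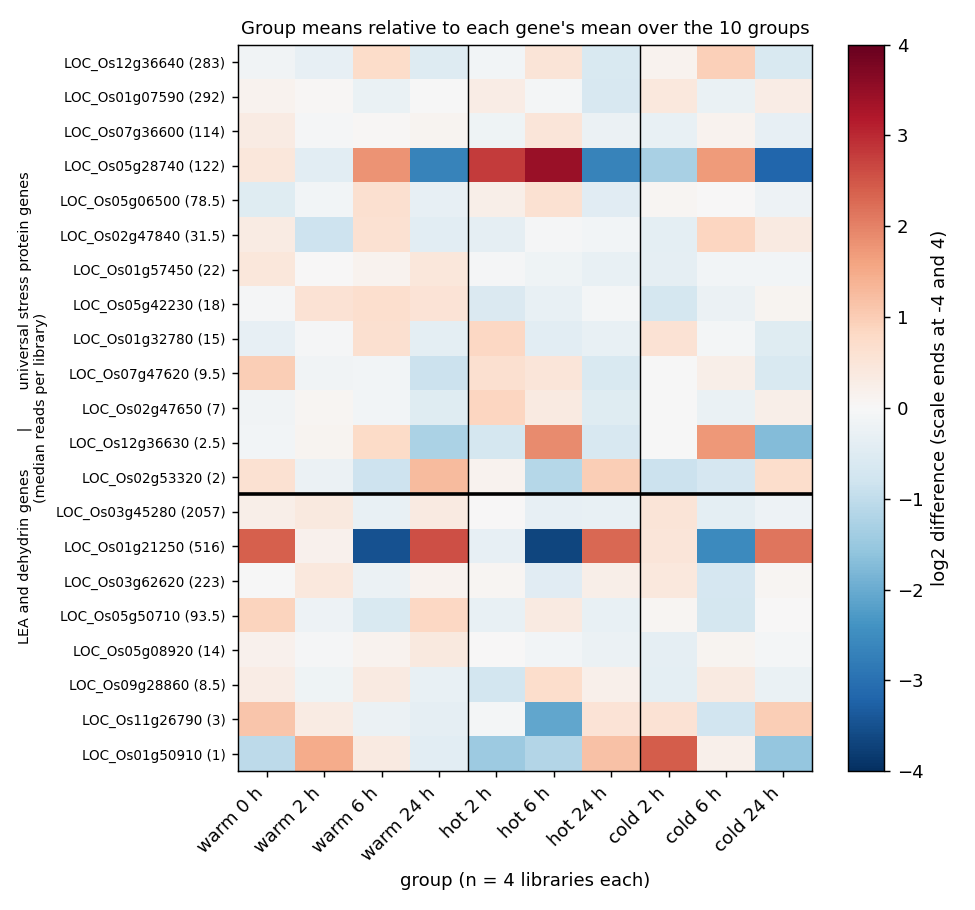
Group mean of the log2 value of each member minus that gene's own mean over the 10 groups (columns, n = 4 libraries each), with USP genes above the line and LEA genes below it and the median reads per library in brackets. The LEA gene LOC_Os01g21250 is low in all 3 columns of 6 h, and the USP gene LOC_Os05g28740 is high in hot leaves at 2 and 6 h and low in all 3 columns of 24 h.

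Leaves 2 h into the heat differed from warm leaves of the same hour in 1 member of each family, and in opposite directions. The USP gene LOC_Os05g28740 was 9.33-fold higher in hot leaves. The LEA gene LOC_Os01g50910, a group 3 LEA gene near the detection limit, was lower. Calls were made in limma at an adjusted p under 0.05, with the Benjamini-Hochberg adjustment spanning the whole table. By that measure 1 of 13 USP genes rose and 0 fell, and 0 of 8 LEA genes rose and 1 fell. Of all genes, 3.63% rose and 4.58% fell. In either direction 7.69% of USP genes and 12.5% of LEA genes were called, where 8.2% of all genes were called. The shares lay near the background, and neither call held with lane as a term. The fitted change was above 0 in 9 of 13 USP genes, with a median of 0.36 on the log2 scale, and in 1 of 8 LEA genes, with a median of -0.39. Over all genes the change was above 0 in 9810 of 19308, with a median of 0.01. At 6 h of heat the change was above 0 in 6 of 13 USP genes (median 0) and 2 of 8 LEA genes (median -0.19). At 24 h the counts were 6 of 13 and 4 of 8, with a median of -0.1 in each family. Of all 19308 genes, 8898 were above 0 at 6 h and 9633 at 24 h. The difference between the families was not tested, since genes of a family are not replicates of a condition.

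LOC_Os05g28740 lies on chromosome 5 at 16859683 to 16860977 on the plus strand (build IRGSP-1.0). In the warm 2 h libraries its levels were 1.95, 39.3, 39.3 and 16 CPM. In the hot 2 h libraries they were 77.7, 89.1, 153 and 343 CPM. Each hot library was above every warm library, and the spread was wide on both sides, with warm replicate 1 far below its group. The log2 difference was 3.22 ± 0.89 (SE, n = 4 per group; 95% interval 1.41 to 5.03; limma, adjusted p = 0.0216). The call was lost with the sequencing lane as a term, at 3.27 with adjusted p = 0.0774 in limma. It was also lost without warm replicate 1 (2.25, limma adjusted p = 0.124), without hot replicate 3 (3.17, limma adjusted p = 0.0571) and without hot replicate 4 (2.79, limma adjusted p = 0.101). Within lane 2, which held 2 hot libraries and 1 warm library, the difference was 2.38.

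LOC_Os01g50910 lies on chromosome 1 at 29233028 to 29234256 on the minus strand. Its counts were 8, 2, 3 and 8 reads in the warm 2 h libraries and 1, 0, 0 and 0 reads in the hot 2 h libraries. The hot libraries held fewer reads than the warm libraries, at counts mostly near or under the floor of 3 reads. Pooled, 21 reads stood against 1, a ratio of 20.4 after depth (95% exact interval 3.29 to 845, counting error only). At the other warm hours the pooled counts were 1 read at 0 h, 12 at 6 h and 3 at 24 h. The pooled count at hot 2 h thus equalled that at warm 0 h. The fitted log2 difference, which depends on the 0.5 reads added to each count, was -2.95 ± 0.86 (SE, n = 4 per group; limma, adjusted p = 0.0287). On the scale of log2 of CPM plus 1 it was -0.75, with adjusted p = 0.0812 in limma, and with lane as a term it was -3.48, with adjusted p = 0.0644 in limma. The call was lost without any of 6 of the 8 libraries, namely warm replicates 1, 3 and 4 and hot replicates 2, 3 and 4, where the difference ran from -2.87 to -2.72. The summed level of 3 secondary wall cellulose synthase genes, which mark vascular tissue, was also lower in these hot libraries, at 0.476 to 8.81 CPM against 3.72 to 17.4 CPM, with 0 of 3 called. Their part in the result was not tested.

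**Figure D2:**
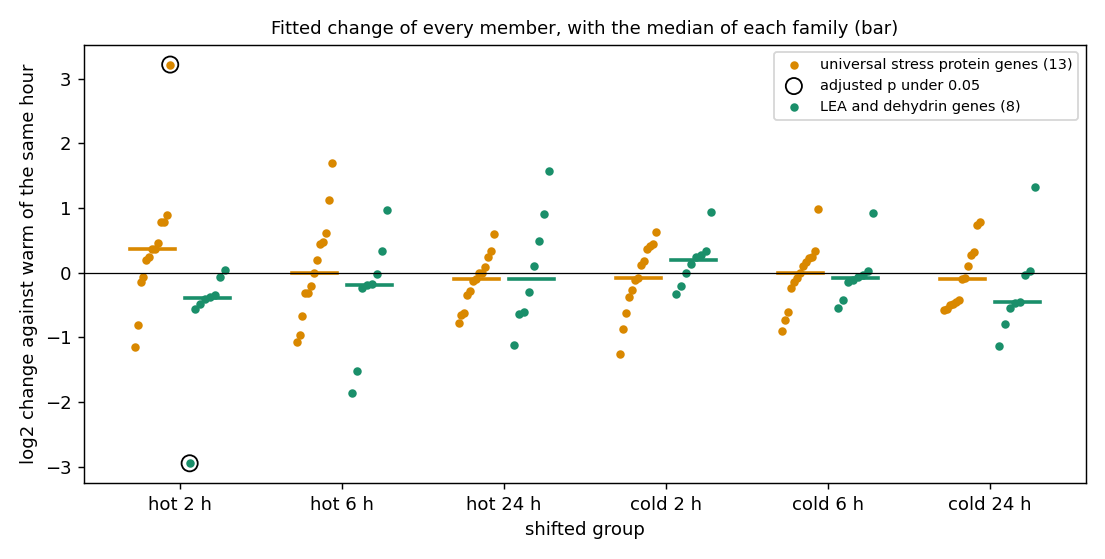
Fitted log2 change of every member against warm leaves of the same hour (vertical axis) in the 6 shifted groups (horizontal axis), with USP genes in orange, LEA genes in green, a bar at each family's median and a ring around members with adjusted p under 0.05. Only hot 2 h holds ringed members, LOC_Os05g28740 at 3.22 and LOC_Os01g50910 at -2.95.

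The other members moved less at 2 h of heat. At an unadjusted p under 0.05 in limma there were 2 USP genes and 1 LEA gene, against 4560 of all 19308 genes. The largest fall of a USP gene was -1.15 ± 0.55 (SE, log2; limma, adjusted p = 0.202). The largest USP rise after LOC_Os05g28740 was 0.89 ± 0.54 (SE, log2; limma, adjusted p = 0.327), in a gene whose groups did not overlap. The dehydrin gene LOC_Os03g45280, which took the most reads, was at 320, 468, 616 and 375 CPM in warm leaves and at 430, 404, 218 and 319 CPM in hot leaves. These ranges overlapped, and the log2 difference of -0.38 ± 0.24 (SE) did not pass (limma, adjusted p = 0.347). The USP gene LOC_Os05g06500 had hot values of 14.7 to 16.6 CPM, all above the warm values of 10.8 to 14 CPM. Its difference was small, 0.36 ± 0.22 (SE), and did not pass (limma, adjusted p = 0.331).

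Hot leaves were also set against cold leaves of the same hour, a comparison that shares its hot libraries with the one above. At 2 h the same 2 members were called: 1 of 13 USP genes was higher in hot leaves and 1 of 8 LEA genes was lower, where 6.73% of all genes were higher and 8.32% lower. LOC_Os05g28740 was at 1.35, 18.1, 5.85 and 30.1 CPM in the cold 2 h libraries, so all 4 lay below the hot libraries. The log2 difference of hot against cold was 4.09 ± 0.89 (SE, n = 4; limma, adjusted p = 0.00177), or 17-fold. LOC_Os01g50910 had 13, 8, 29 and 1 reads in the cold 2 h libraries against 1, 0, 0 and 0 in the hot ones, so cold replicate 4 and hot replicate 1 held 1 read each. Pooled, 51 reads stood against 1, a ratio of 59.3 after depth (95% exact interval 10.2 to 2390, counting error only). Its log2 difference was -3.89 ± 0.86 (SE, n = 4; limma, adjusted p = 0.00194). Both genes still passed when a lane term was added and when each hot or cold 2 h library was left out in turn. Within lane 3, which held 2 hot libraries and 1 cold library, the differences were 7.40 and -4.94. For LOC_Os05g28740 that pairing was extreme. The cold library there was the lowest of its group, at 1.35 CPM, and the hot ones were the highest of theirs, at 153 and 343 CPM.

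After 6 h of heat no member was called against warm leaves, where 2.39% of all genes rose and 4.51% fell in limma. At an unadjusted p under 0.05 there were 1 USP gene and 1 LEA gene, against 3888 of all 19308 genes. With voom weights there were again 0 member calls, against 1461 calls over all genes. The LEA gene LOC_Os05g50710 was at 8.7, 13.4, 11.9 and 11.9 CPM in warm and at 12.9, 38.3, 27.8 and 17.6 CPM in hot leaves. The groups overlapped by a single hot library, and the log2 difference was 0.97 ± 0.38 (SE; limma, adjusted p = 0.121). LOC_Os07g36600, a USP gene, was at 17.5, 21.9, 19.9 and 23.7 CPM in warm and 22.9, 27.3, 29.3 and 33 CPM in hot leaves. Its difference was 0.44 ± 0.18 (SE; limma, adjusted p = 0.154). Without warm 0 h replicate 1 and hot 24 h replicate 1, which belong to neither group but enter the shared estimate of the spread, these 2 genes were called, with adjusted p = 0.00885 and 0.0447 in limma, where 10.9% of all genes were called. LOC_Os05g28740 was at 214, 270, 152 and 259 CPM in hot leaves at 6 h and at 44.1, 43.4, 67.9 and 164 CPM in warm leaves, with 1 warm library inside the hot range. That difference was 1.69 ± 0.89 (SE) and did not pass (limma, adjusted p = 0.292).

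Against cold leaves at 6 h, 0 members were called, where 3.17% of all genes were higher in hot leaves and 5.11% lower in limma. At an unadjusted p under 0.05 there were 2 USP genes and 1 LEA gene, against 4110 of all 19308 genes. Voom weights gave 2 member calls, against 1960 calls over all genes. LOC_Os05g50710 was higher in hot leaves by 1.08 ± 0.38 (SE, log2; limma, adjusted p = 0.0703), with cold values of 9.54, 10.8, 8.73 and 13.6 CPM. The USP gene LOC_Os05g06500 was at 18.2, 19.8, 21.1 and 21.1 CPM in hot and 15.8, 12.6, 11.4 and 13 CPM in cold leaves, without overlap. Its difference of 0.61 ± 0.22 (SE, log2) did not pass (limma, adjusted p = 0.0829). LOC_Os02g47840, another USP gene, was lower in hot leaves, at 4.57, 4.5, 7.93 and 5.16 CPM against 11.3, 6.75, 10.2 and 13.4 CPM, a difference of -0.91 ± 0.34 (SE, log2; limma, adjusted p = 0.0908). Without the same 2 libraries, LOC_Os05g50710 and LOC_Os02g47840 were called here, with adjusted p = 0.00321 and 0.0318 in limma, where 12.3% of all genes were called.

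After 24 h of heat and at every hour of the cooler room, 0 members were called in limma, and 0% of all genes were called in the hot 24 h, cold 2 h, cold 6 h and cold 24 h comparisons with warm. At an unadjusted p under 0.05 there were 1 USP gene and 2 LEA genes at hot 24 h, 1 USP gene each at cold 2 h and cold 6 h, and 2 genes of each family at cold 24 h. Of all 19308 genes, 1206, 1251, 869 and 1457 were under that threshold at hot 24 h, cold 2 h, cold 6 h and cold 24 h. Voom weights gave 0 member calls in all 4 comparisons. The LEA gene LOC_Os05g50710 was at 30.1, 24.6, 44.3 and 26.2 CPM in warm 24 h leaves, above all hot 24 h libraries (14.3, 12.4, 15.8 and 13.8 CPM) and all cold 24 h libraries (14.2, 23, 19.9 and 14.7 CPM). The differences of -1.12 ± 0.38 and -0.79 ± 0.38 (SE, log2) did not pass (limma, adjusted p = 0.599 and 0.654). Both share the warm 24 h libraries. Direct comparison of hot with cold leaves at 24 h gave 0 calls among members and 0% over all genes in limma. At an unadjusted p under 0.05 it gave 1 member of each family, against 1469 of all 19308 genes. The USP gene LOC_Os01g07590 was lower in every hot than in every cold library there, at 21.9, 35.4, 34.2 and 37.9 CPM against 49.2, 122, 55.9 and 43.7 CPM in cold leaves. Its difference was -0.97 ± 0.26 (SE, log2; limma, adjusted p = 0.509). Without hot 24 h replicate 2 the gene was called, at -1.02 (limma, adjusted p = 0.044), where 2.19% of all genes were called.

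The heat change at 24 h was then tested against the heat change at 2 h, each relative to warm leaves of its hour. No member was called in limma, where 0.513% of all genes differed upward and 0.321% downward. At an unadjusted p under 0.05 there were 2 USP genes and 1 LEA gene, against 2893 of all 19308 genes. For LOC_Os05g28740 the difference of the changes was -3.22 ± 1.26 (SE, log2; limma, adjusted p = 0.218). Its levels at 24 h were 2.53, 0.878, 12.1 and 3.43 CPM in hot and 3.43, 10.6, 2.4 and 1.05 CPM in warm leaves, and the difference at that hour was 0.00 ± 0.89. For LOC_Os01g50910 the difference of the changes was 4.52 ± 1.21 (SE, log2; limma, adjusted p = 0.063), with 3, 2, 9 and 2 reads in hot 24 h libraries and 2, 0, 1 and 0 in warm ones. Without hot 24 h replicate 2 it was called, at 4.68 (limma, adjusted p = 0.0341), where 3.68% of all genes were called. The same test for the cold change called 0 members and 0% of all genes. There 0 members had an unadjusted p under 0.05, against 987 of all 19308 genes. Voom weights gave 0 member calls in both tests.

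Genes of abscisic acid signalling and dehydration response were counted beside the members. Of 10 such genes, 9 were in the table. The list was drawn up with earlier results of these data known and holds the 2 dehydrin genes left out by the rule, so its counts are a description and support nothing. At 2 h of heat 0 rose and 7 fell, where 3.63% of all genes rose and 4.58% fell, and the median change was -1.58 on the log2 scale. The alternatives were not run for these genes, and over all genes the calls in this comparison went from 1584 to 553 with a lane term. LOC_Os07g05940, a 9-cis-epoxycarotenoid dioxygenase of the kind that makes the abscisic acid precursor, fell by 5.69 on the log2 scale (SE 1.18; limma, adjusted p = 0.00252). Its hot 2 h libraries held 8 reads in all, against 281 in the warm 2 h libraries. The size of that fall therefore depends on the 0.5 reads added to each count. The dehydrin gene LOC_Os02g44870, left out of the members by the rule, fell by 2.20 (SE 0.59; limma, adjusted p = 0.0176). LOC_Os05g46040, a protein phosphatase 2C, fell by 1.5 (SE 0.26; limma, adjusted p = 0.000458). Against cold leaves of the same hour, 6 of the 9 were lower and 0 higher, where 8.32% of all genes were lower and 6.73% higher, and in all the other comparisons of hot or cold with warm leaves 0 were called.

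Levels were next compared between hours within each temperature. Over the 4 hours of the warm leaves a moderated F test called 5 of 13 USP genes (38.5%) and 3 of 8 LEA genes (37.5%), where 44.7% of all genes were called, so the shares lay near the background. Over the hot hours it called 6 USP and 4 LEA genes, where 43.9% of all genes were called. Among those LEA genes, LOC_Os01g50910, LOC_Os11g26790 and LOC_Os09g28860 had medians of 1, 3 and 8.5 reads per library. With 1 library left out, LOC_Os11g26790 kept its call in 3 of 12 fits and each of the other 2 in 10 of 12. LOC_Os11g26790 also lost it with voom weights, and LOC_Os11g26790 and LOC_Os01g50910 lost it on the scale of log2 of CPM plus 1. Over the cold hours the F test called 4 genes of each family, where 37.1% of all genes were called. The tests over the hot and cold hours were added after the data had been seen. In hot and cold leaves, time of day and time since the move cannot be told apart.

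The widest daily course in the LEA family was that of LOC_Os01g21250, on chromosome 1 at 11863920 to 11864332 on the minus strand. In warm leaves it was at 443, 268, 582 and 338 CPM at 0 h, at 56.5, 130, 91.2 and 71.5 CPM at 2 h, at 6.55, 16.4, 9.88 and 1.81 CPM at 6 h, and at 392, 363, 748 and 373 CPM at 24 h. The 0 h and 24 h libraries overlapped, the 2 h libraries lay below both, and the 6 h libraries lay below all others. Group means spanned 6.08 on the log2 scale, a 67.5-fold range (limma F test, adjusted p = 4.13e-11). In hot leaves the levels were 91.4, 71, 65.6 and 29.6 CPM at 2 h, 7.95, 6.16, 4.23 and 5.55 CPM at 6 h, and 266, 166, 543 and 719 CPM at 24 h. In cold leaves they were 66.9, 224, 214 and 37.7 CPM at 2 h, 15.9, 9.39, 15.7 and 10.8 CPM at 6 h, and 476, 821, 202 and 142 CPM at 24 h. The same order of the means by hour appeared at each temperature, with ranges of 5.96 and 4.69 on the log2 scale in hot and cold leaves (limma F test, adjusted p = 3.8e-10 and 9.6e-08). None of the 6 comparisons with warm leaves passed for this gene, with changes from -0.48 to 0.93 and a standard error of 0.56. The summed mesophyll genes also fell over these hours, from a median of 154000 CPM at warm 0 h to 53000 CPM at warm 6 h, and their part in the result was not tested.

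**Figure D3:**
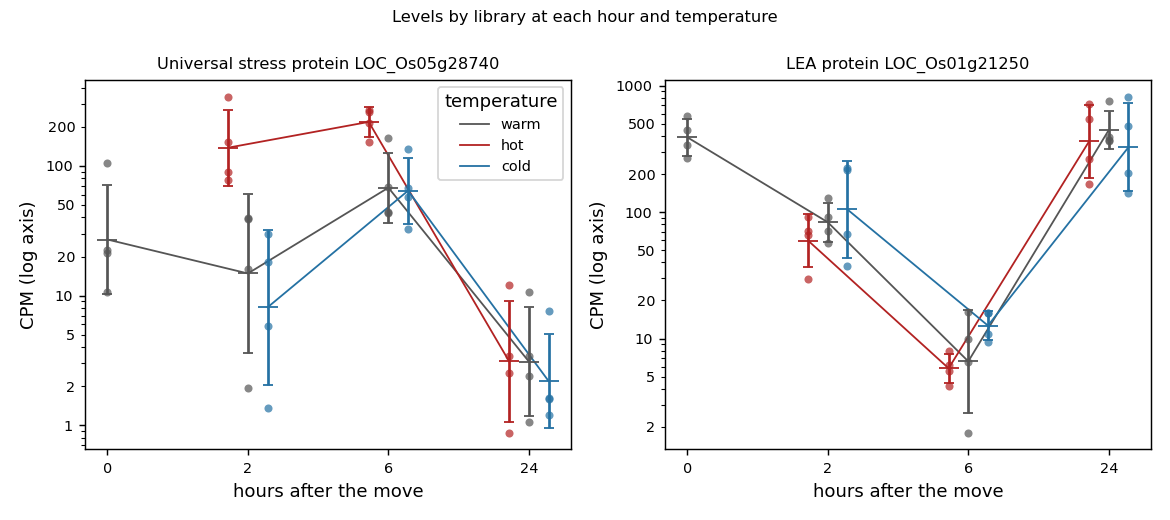
Level in CPM (log axis) of the USP gene LOC_Os05g28740 (left) and the LEA gene LOC_Os01g21250 (right) in every library against hours after the move, in warm (grey), hot (red) and cold (blue) leaves, with bars at the geometric mean and 1 SD of the log2 values. The left panel shows the hot libraries at 77.7 to 343 CPM at 2 h, above all warm and cold ones, and the right panel shows all temperatures at 1.81 to 16.4 CPM at 6 h.

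LOC_Os05g28740 ran the other way over the day, with its highest level at 6 h at each temperature. In warm leaves the geometric means were 27.1, 14.8, 67.9 and 3.09 CPM at 0, 2, 6 and 24 h, a range of 4.46 on the log2 scale, or 22-fold (limma F test, adjusted p = 0.000828). In hot leaves they were 138, 218 and 3.10 CPM at 2, 6 and 24 h, a 70.5-fold range (limma F test, adjusted p = 6.59e-07). Cold leaves had 8.11, 64.2 and 2.19 CPM, a 29.3-fold range (limma F test, adjusted p = 0.000162). The levels at 24 h overlapped in all 3 temperatures. In warm leaves, the level at 24 h was below that at 0 h, although both were taken at the same time of day: the 0 h libraries held 106, 21.1, 22.5 and 10.7 CPM and the 24 h libraries held 3.43, 10.6, 2.4 and 1.05 CPM. The difference was -3.13 ± 0.89 (SE, log2; limma, adjusted p = 0.0471), and this was the 1 call of 21 members in that comparison, where 1.58% of all genes were higher and 1.34% lower. It was lost without 0 h replicate 1 (-2.47, limma adjusted p = 0.301), with lane as a term (-2.99, limma adjusted p = 0.0535), with a replicate block (-3.13, limma adjusted p = 0.0526) and with voom weights (-3.22, limma adjusted p = 0.136). Without 24 h replicate 1, 3 or 4 it was lost as well, at -3.18, -3.01 and -2.61 (limma, adjusted p = 0.106, 0.106 and 0.137).

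From 0 h to 6 h in warm leaves, 2 USP genes rose and 2 LEA genes fell, where 24.3% of all genes rose and 19.6% fell. LOC_Os05g06500 rose from 8.28, 9.48, 7.74 and 12.7 CPM to 19.4, 16.4, 15.4 and 33.1 CPM, without overlap, by 1.10 ± 0.22 (SE, log2; limma, adjusted p = 0.000115). LOC_Os12g36640 went from 118, 34, 30.6 and 35.9 CPM to 88.4, 68.7, 66.2 and 126 CPM, a change of 0.88 ± 0.32 (SE, log2; limma, adjusted p = 0.0228), with replicate 1 of 0 h inside the 6 h range. That call was lost when libraries were shifted to one median (0.72) and without 0 h replicate 2, 3 or 4 or 6 h replicate 4 (0.69 to 0.76). LOC_Os01g21250 fell by 5.89 on the log2 scale (SE 0.56; limma, adjusted p = 1.08e-10). LOC_Os05g50710 fell from 136, 16.3, 18.4 and 26.3 CPM to 8.7, 13.4, 11.9 and 11.9 CPM, by 1.51 on the log2 scale (SE 0.38; limma, adjusted p = 0.00137). Without 0 h replicate 1 that change was -0.81 (limma, adjusted p = 0.0141). This comparison and the one between 24 h and 0 h were added after the data had been seen.

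Replicate 1 of warm 0 h had a large part in some of these values and little in others. Without it alone, the changes of LOC_Os12g36640 and LOC_Os05g50710 from 0 h to 6 h were 1.34 and -0.81. Those of LOC_Os01g21250 and LOC_Os05g06500 hardly moved, at -5.83 and 1.04, and all 4 genes were still called. That replicate was the highest of its 4 libraries in 8 of 13 USP genes (61.5%) and 4 of 8 LEA genes (50%), against 36.2% of all genes. In the USP gene LOC_Os07g47620 it held 28.6 CPM against 1.5 to 2.18 CPM in the other libraries of the group, and in LOC_Os02g47650 it held 15.7 CPM against 0.344 to 0.577 CPM (genes named here after their values were seen). Without it and hot 24 h replicate 1, the change from 0 h to 6 h was called in 7 of 21 members instead of 4, where 40.8% of all genes were called. The calls then added were LOC_Os02g47650 and LOC_Os12g36630 of the USP family, higher at 6 h by 1.28 and 2.10 on the log2 scale, and the dehydrin gene LOC_Os03g45280, which changed by -0.81 (limma, adjusted p = 0.0247, 0.0413 and 0.00482).

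**Figure D4:**
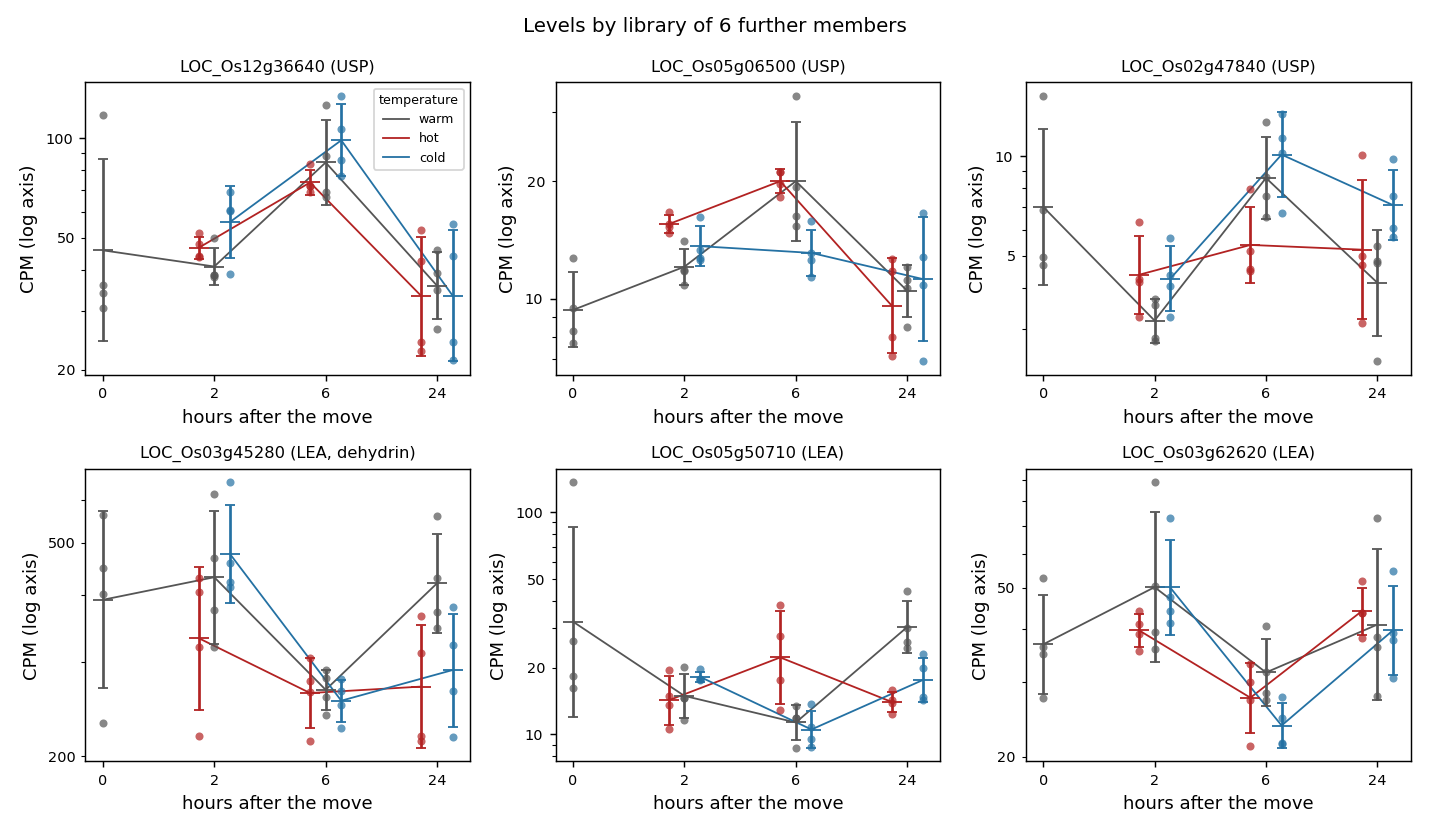
Level in CPM (log axis) of 3 USP genes (top) and 3 LEA genes (bottom) in every library against hours after the move, in warm (grey), hot (red) and cold (blue) leaves, with bars at the geometric mean and 1 SD of the log2 values. LOC_Os12g36640 (top left) is highest at 6 h at each temperature, and LOC_Os03g45280 and LOC_Os03g62620 (bottom left and right) have their lowest mean at 6 h at each temperature.

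The 6 h mean of each temperature was set against its 2 h and 24 h means. Warm 0 h was left out, since hot and cold leaves have no such hour. The mean at 6 h was the highest of the hours at all 3 temperatures in 4 of 13 USP genes, LOC_Os02g47840, LOC_Os05g28740, LOC_Os12g36630 and LOC_Os12g36640, and in 1 of 8 LEA genes, LOC_Os09g28860, against 26% of all genes. It was the lowest at all 3 temperatures in 0 of 13 USP genes and in 3 of 8 LEA genes, LOC_Os01g21250, LOC_Os03g45280 and LOC_Os03g62620, against 23.7% of all genes. In warm leaves 6 h was the highest of these hours in 61.5% of USP genes and 12.5% of LEA genes, against 43.5% of all genes. Counted there is the USP gene LOC_Os07g47620, whose mean log2 value was 0.77 at 6 h but 1.88 at 0 h. It was the lowest hour in 15.4% of USP genes and 50% of LEA genes, against 36.7% of all genes. In hot leaves 6 h was the highest hour in 46.2% of USP genes and 25% of LEA genes, against 38.9% of all genes, and the lowest in 15.4% and 50%, against 40%. In cold leaves it was the highest in 53.8% and 25%, against 40.7%, and the lowest in 15.4% and 62.5%, against 36.6%. These counts carry no test, and they hold for means whose order may rest on small differences.

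Among the other members called over the warm hours, ranges were modest. The USP gene LOC_Os02g47840 was at 15.3, 6.89, 4.97 and 4.7 CPM at 0 h, at 3.71, 3.56, 2.84 and 2.74 CPM at 2 h, at 7.55, 6.53, 8.63 and 12.7 CPM at 6 h, and at 4.83, 5.35, 2.4 and 4.75 CPM at 24 h. The 2 h libraries lay below all 0 h and 6 h libraries, and the means spanned 1.43 on the log2 scale (limma F test, adjusted p = 0.00178). LOC_Os05g06500 and LOC_Os12g36640 spanned 1.10 and 1.24 (limma F test, adjusted p = 0.000494 and 0.00715), the latter not passing without 6 h replicate 4 (1.04, limma adjusted p = 0.061). The dehydrin gene LOC_Os03g45280 spanned 0.70 (limma F test, adjusted p = 0.0478), which did not pass once a lane term was added, nor without 0 h replicate 2 or 4, 2 h replicate 2 or 3, any 6 h replicate, or 24 h replicate 1 or 3. LOC_Os07g47620 spanned 1.87 (limma F test, adjusted p = 0.0487), and 0.89 without 0 h replicate 1. It also lost its call with a lane term (1.83, limma adjusted p = 0.0765), with voom weights (1.82, limma adjusted p = 0.113) and without 2 h replicate 1, 2 or 4 or any 6 h or 24 h replicate. In the LEA family LOC_Os05g50710 spanned 1.51 (limma F test, adjusted p = 0.00158).

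The LEA gene LOC_Os03g62620 also had its lowest mean at 6 h at each temperature. In cold leaves it was at 44.1, 47.4, 73 and 41.3 CPM at 2 h, at 24.8, 21.5, 21.4 and 27.6 CPM at 6 h, and at 37.8, 55.1, 39.1 and 30.8 CPM at 24 h. The 6 h libraries lay below all others, with a range of 1.08 on the log2 scale (limma F test, adjusted p = 0.00215). In warm leaves its range of 0.67 did not pass (limma F test, adjusted p = 0.126).

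LOC_Os12g36630 and LOC_Os12g36640 are neighbours on chromosome 12, on the same strand with 252 bases between them, and are the only pair of members adjacent in the table. Both had their highest mean at 6 h at each temperature, and both were called over the hot hours and the cold hours. LOC_Os12g36630 held few reads, with 7, 19, 14 and 7 at hot 6 h and 8, 13, 14 and 9 at cold 6 h against 0 to 3 at hot 2 h and 1 to 6 at cold 2 h. Its ranges were 2.59 on the log2 scale in hot leaves (limma F test, adjusted p = 0.0249) and 3.49 in cold leaves (limma F test, adjusted p = 0.00846). LOC_Os12g36640 had ranges of 1.14 and 1.56 (limma F test, adjusted p = 0.012 and 0.000715). Over the hot hours the first did not pass without 6 h replicate 2 or 3 (2.25 and 2.49), nor the second without 24 h replicate 1 (0.96). How reads shared by similar genes were counted is not given in the sources used here, so values of neighbouring members may be split between them. The same holds for the dehydrin gene LOC_Os11g26790, whose number follows that of the excluded LOC_Os11g26780.

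The rule for named genes left 10 members, 5 of which are mentioned above. Their median counts were 2 to 22 reads per library in 7 USP genes and 3 to 14 reads in 3 LEA genes. Over the 6 comparisons of hot or cold with warm leaves their changes ran from -1.26 to 1.13 on the log2 scale in USP genes and from -1.86 to 1.32 in LEA genes, and 0 were called (limma, lowest adjusted p = 0.202 and 0.261).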

How the data were processed

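The authors deposited 1 table of log2 values for genes and libraries, in the form limma voom gives: the read count plus 0.5 over the scaled library size, as log2 CPM. Per the submitters' processing notes, the genome build was IRGSP-1.0 and featureCounts 1.5.0-p1, Subread 1.5.0-p1, limma 3.20.1 and edgeR 3.4.2 were used, next to FastQC 0.11.2, bcl2fastq, bedtools and SAMtools 1.1-26. The library kit was stranded, per the labels' protocols. No source used here gives the library scaling, the low-count filter, the strand setting or the treatment of reads shared by genes; a filter on low counts would have removed low members before deposit. Whole reads were recovered from the deposited log2 values within 0.001 reads and are used for counts and floors of 3 reads.

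With limma 3.58.1 (R 4.3.3), the log2 values of the 19308 genes were modelled by group, using trend and robust empirical Bayes estimation. The script was tested on simulated data. All tests were two-sided, with Benjamini-Hochberg adjustment over all genes of each comparison and calls at 0.05. Intervals are 95%. Exact intervals of pooled reads are binomial. Plots were drawn with matplotlib 3.10.9 in Python 3.11.15.

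The members and lists were chosen with earlier results of these data known. Named members were, per family, the 3 largest rises and falls among calls of each comparison, the 3 with the smallest F test p over the warm hours, the 3 highest in mean level, and LOC_Os05g28740. Alternatives were an offset of 1 CPM, a filter on mean log2 value of at least 0, libraries shifted to one median, lane as a term, a replicate block, voom weights, and libraries left out. No sequences of genes or proteins were used here. Libraries were not paired by replicate number: 7 of 36 same-numbered pairs had deviations correlated above 0.1, and in 0 of 9 comparisons did all pairs.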

Additional observations from a re-analysis of the deposited data

Results flagged for a closer look

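In 8 of 110 groups of 4 libraries, over the 11 named members, a single library lay far from the others of its group. Chance flags about 1 in 20 groups, which is 5.5 of 110, so the number is close to that. Replicate 1 of warm 0 h holds 2 of them. In that library LOC_Os12g36640 stood at 118 CPM against 30.6 to 35.9 CPM, and LOC_Os01g50910 at 0.35 CPM, which is 1 read, against 0.0998 to 0.115 CPM, which are 0 reads. In warm 2 h leaves LOC_Os12g36640 stood at 49.7 CPM in replicate 3 against 38 to 38.7 CPM, and LOC_Os01g50910 at 0.395 CPM in replicate 2 against 1.04 to 1.2 CPM. Replicate 3 of warm 24 h, the library with the fewest reads, had LOC_Os01g21250 at 748 CPM against 363 to 392 CPM and LOC_Os02g47840 at 2.4 CPM against 4.75 to 5.35 CPM. LOC_Os05g28740 stood at 7.58 CPM in cold 24 h replicate 1 against 1.19 to 1.62 CPM. LOC_Os05g50710 stood at 19.7 CPM in cold 2 h replicate 4 against 17.6 to 17.8 CPM.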

How the results depend on the processing

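Among members called in the fit reported, no log2 change between groups reversed direction under any alternative run. Ranges over hours have no direction, and members not called were not checked for it. The count of called members at hot 2 h against warm 2 h, 2 in the fit reported, was 1 on the scale of log2 of CPM plus 1, 1 with the filter on mean level (which removes LOC_Os01g50910) and 0 with lane as a term, and 0 to 2 when single libraries were left out. At hot 2 h against cold 2 h it was 1 with the filter. Without warm 0 h replicate 1 and hot 24 h replicate 1 (both libraries), hot 6 h against warm 6 h gave 2 calls instead of 0. Warm 6 h against 0 h then gave 7 instead of 4. In these 2 comparisons 10.9% and 40.8% of all genes were called without both libraries. Hot 6 h against cold 6 h gave 0, and 2 without both libraries, 2 under voom weights and 1 with lane as a term. Single libraries left out gave 0 to 1 there, 0 to 1 for hot against cold at 24 h, 3 to 7 for warm 6 h against 0 h, 0 to 2 for warm 24 h against 0 h, and 5 to 9 over the warm hours. Over the hot hours they gave 7 to 10, with 10 in the fit reported, and over the cold hours 8 to 10, with 8 in that fit. The heat change at 24 h against that at 2 h gave 1 call with lane as a term, 1 with a replicate block and 0 to 1 with single libraries left out. Warm 24 h against 0 h gave 0 calls without both libraries, with voom weights, with a replicate block and with a lane term. The cause of these changes was not tested.

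The replicate block moved no other count of called members by over 1.5 times. The correlation of same-numbered pairs ran from -0.29 to 0.27. Over all genes, calls at hot 2 h against warm 2 h were 1584, 553 with lane as a term and 2705 without both libraries. At hot 6 h they were 1333, 267 and 2110. With lane as a term, calls were 1767 instead of 2907 for hot against cold at 2 h, 957 instead of 1599 at 6 h, and 374 instead of 161 for the heat change at 24 h against that at 2 h. Warm 24 h against 0 h had 564, with 215 under voom weights and 110 without both libraries. Comparisons reported with 0 calls over all genes gave up to 4 under an alternative, except hot against cold at 24 h, which gave 423 without hot 24 h replicate 2. Without that library the heat change at 24 h against that at 2 h gave 711. With single libraries left out, calls over all genes ran from 31 to 711 for that change, from 582 to 1690 at hot 2 h and from 658 to 1131 at hot 6 h against warm leaves, and from 42 to 1507 for warm 24 h against 0 h. Shifting libraries to one median moved the median of all genes by up to 0.158 (log2). Depth limits LOC_Os01g50910, at a median of 1 read per library, most of all.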
